A study of Homo sapiens with 19 samples.

Results

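The 10 genes described here, DUSP4, DUSP5, DUSP6, SPRY2, SPRY4, ETV4, ETV5, EGR1, FOS and PHLDA1, are genes whose transcription is known to follow the RAS to ERK branch of MAP kinase signalling. They were picked by symbol from a table of 78894 genes, and all 10 passed the filter on low counts in both batches of the study. The cells were HepaRG, a human hepatic line whose differentiated cultures hold cells like hepatocytes and cells like those of bile ducts, and total RNA was sequenced after removal of ribosomal RNA. Batch 1 compared siRNA against ADAR and siRNA against ADARB1, 3 libraries each, with a control siRNA (siNC, 3 libraries). Batch 2 held BX795 with the ADAR siRNA (2 libraries), BX795 (3 libraries) and interferon alpha (IFNa, 2 libraries), with siNC controls of its own (3 libraries). The siRNA was given at 20 nM, BX795 at 1 µM and IFNa at 1000 U/mL, and both agents were kept on the cells from transfection on and renewed with the medium after 24 h and after 48 h. It is not stated whether wells with BX795 or IFNa alone also received siNC. If they did not, comparisons with those wells cannot tell transfection itself apart from the siRNA or the agent. Separate cultures are not named for the replicates, so p-values measure only the spread between libraries, which may be technical.

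ERK, switched on by growth factor receptors through RAS, RAF and MEK, phosphorylates transcription factors that turn on immediate early genes such as FOS and EGR1 without new protein synthesis. A slower set of targets feeds back on the pathway: dual specificity phosphatases (DUSP) remove phosphate from MAP kinases, and Sprouty proteins (SPRY) dampen signalling from receptor tyrosine kinases. In the liver the pathway is known for the responses to HGF and EGF family ligands during regeneration. ADAR and ADARB1 are enzymes that convert adenosine to inosine in double-stranded RNA. BX795 is an inhibitor of several kinases, among them TBK1, IKK epsilon and PDK1. IFNa belongs to the type I interferons, which signal through JAK and STAT proteins.

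The stretches just upstream of 4 of the genes are shown because EGR1, PHLDA1 and DUSP6 took the same order across the batch 1 groups, described below, while FOS, an immediate early gene like EGR1, did not. The SPRY2 means stood in the same order, but neither SPRY2 change against siNC was called. Each line gives the 250 bases before the annotated start, from RefSeq on GRCh38.p14, written 5′ to 3′ along the gene's own strand. Capitals mark matches, on either strand, to the CArG box (the binding sequence of serum response factor), the cyclic AMP response element half-site TGACG, the ETS core CCGGAA and the TATA sequence TATAAA.
EGR1, chr5:138465229-138465478, plus strand: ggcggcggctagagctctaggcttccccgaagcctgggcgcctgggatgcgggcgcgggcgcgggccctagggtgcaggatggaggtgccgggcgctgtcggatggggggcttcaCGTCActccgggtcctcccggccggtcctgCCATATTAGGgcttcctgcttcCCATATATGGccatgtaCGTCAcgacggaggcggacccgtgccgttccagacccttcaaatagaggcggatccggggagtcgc
PHLDA1, chr12:76031777-76032026, minus strand: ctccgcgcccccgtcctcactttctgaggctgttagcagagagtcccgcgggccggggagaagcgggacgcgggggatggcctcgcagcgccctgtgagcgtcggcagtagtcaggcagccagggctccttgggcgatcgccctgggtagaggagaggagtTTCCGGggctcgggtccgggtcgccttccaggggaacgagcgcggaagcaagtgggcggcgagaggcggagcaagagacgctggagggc
DUSP6, chr12:89352502-89352751, minus strand: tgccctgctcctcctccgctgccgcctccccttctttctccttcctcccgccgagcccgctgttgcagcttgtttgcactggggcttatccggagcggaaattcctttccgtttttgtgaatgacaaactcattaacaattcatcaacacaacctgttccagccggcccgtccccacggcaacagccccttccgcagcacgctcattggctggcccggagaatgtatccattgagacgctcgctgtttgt
FOS, chr14:75278578-75278827, plus strand: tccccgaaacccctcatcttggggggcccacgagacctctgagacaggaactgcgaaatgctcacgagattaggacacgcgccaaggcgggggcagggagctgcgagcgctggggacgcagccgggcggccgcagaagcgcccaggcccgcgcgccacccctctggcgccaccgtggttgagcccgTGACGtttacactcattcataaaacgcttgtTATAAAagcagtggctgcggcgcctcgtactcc
The EGR1 stretch held 2 CArG boxes, beginning at -105 and -83 from the start, and 2 half-sites, at -135 and -66. FOS had a half-site at -64 and a TATA sequence at -33, and PHLDA1 an ETS core at -89. The DUSP6 stretch had no match to these motifs. Bases further upstream than these 250 were not searched, so a gene without a match here, such as FOS for the CArG box, may carry the motif elsewhere. A match is only a description of the letters: 1.16% of 35114 promoters of this length held a CArG box, 21.2% a TGACG half-site, 14.5% the ETS core and 10.7% the TATA sequence. Of 9 genes looked up, 6 had an entry. SPRY4 had a half-site at -68 from an annotated start inside the gene, the stretch searched being chr5:142324248-142324497 on the minus strand. The 250 bases before the 5′ end of SPRY4 at 142325021 were not searched. SPRY2, at 1 of its 3 annotated starts, had a half-site at -190 and an ETS core at -142. DUSP5, ETV4 and ETV5 are named only. The AP-1 sequence TGANTCA and the EGR sequence GCGTGGGCG, carried by 6.57% and 0.721% of all promoters, were searched too and matched none of the 6.

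The targeted genes followed their labels. In batch 1, ADAR had 56.0 to 65.1 CPM (counts relative to the library total, scaled by the trimmed mean of M-values, TMM) in ADAR siRNA libraries, against 239 to 241 CPM in siNC libraries, and ADARB1 had 9.41 to 10.4 CPM in ADARB1 siRNA libraries, against 28.7 to 30.8 CPM in siNC libraries. ADAR stood at 56.1 to 59.9 CPM with BX795 and ADAR siRNA, against 273 to 302 CPM with BX795, and at 742 to 839 CPM with IFNa, against 215 to 266 CPM in the batch 2 siNC libraries. ADARB1 was also lower after ADAR siRNA, at 23.2 to 26.6 CPM, by a log2 change of -0.26 against siNC (edgeR, adjusted p = 0.00178). In batch 2, ADARB1 was called lower than with siNC (61.5 to 67.3 CPM) in 2 groups. It had 49.5 to 55 CPM with BX795 and 45.2 to 47.8 CPM with BX795 and ADAR siRNA. Total counts were 42.7 to 77.1 M per library in batch 1 and 13.1 to 34.7 M in batch 2. The batch 2 siNC libraries stood apart. Relative to their batch they favoured GC-rich genes: the gap in median log2 deviation between genes above 60% and below 40% GC was 0.22, 0.85 and 0.70 in them, against -0.49 to 0.06 in the other batch 2 libraries and -0.06 to 0.11 in batch 1. Changes of the 10 genes against the batch 2 siNC libraries are therefore also given with a correction for GC content. This is done where it changes a call or moves a value by over 1.5 times. Values of ADAR, ADARB1, the markers and the other gene lists are given without this correction. Hepatocyte markers were abundant, with 10 genes summing to 49000 to 69600 CPM in batch 1 and 10300 to 17300 CPM in batch 2, while 6 biliary markers summed to 321 to 796 CPM and 113 to 285 CPM, and EPCAM had no count in any group but the ADARB1 siRNA libraries. Leukocyte markers (5 genes) stayed at 21.2 to 49.4 CPM, with no count for CD3E in any group but the siNC libraries of either batch. Levels are from whole cultures, so fewer cells of a type and less RNA per cell cannot be told apart.

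After ADAR siRNA, 6 of the 10 genes rose and 3 fell relative to siNC (edgeR's quasi-likelihood test, Benjamini-Hochberg adjusted p below 0.05). The phosphatase genes DUSP4 and DUSP5 rose the furthest of the clearly expressed members, while DUSP6, EGR1 and PHLDA1 fell. Across all 21747 genes tested in the batch, 37.8% were called in this comparison, 20.2% higher and 17.6% lower. Libraries of both groups did not overlap for 9 of the genes, 6 higher and 3 lower, as for 24.9% and 23.0% of all tested genes. The median change of the 10 genes was 0.30 (log2), against -0.01 over all tested genes. The directions thus differed within the DUSP family and within the immediate early pair EGR1 and FOS.

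DUSP5, a nuclear phosphatase specific for ERK, had 18.5, 18.1 and 17.5 CPM in the 3 ADAR siRNA libraries, against 8.83, 10.9 and 10.5 CPM in siNC libraries. The groups did not overlap, and the log2 change was 0.84 ± 0.08 (SE; adjusted p = 1.26e-06), a 1.79-fold higher level. DUSP4, an inducible nuclear phosphatase that acts on ERK and other MAP kinases, had 7.95, 8.43 and 7.90 CPM after ADAR siRNA, against 4.53, 4.43 and 5.15 CPM with siNC. Every ADAR siRNA library stood above every siNC library (0.78 ± 0.09, adjusted p = 9e-06). DUSP6, the cytoplasmic ERK phosphatase and a common readout of ERK activity, had 17.9, 18.5 and 18.7 CPM after ADAR siRNA, against 21.5, 23.2 and 21.1 CPM with siNC. It was lower in all 3 libraries, by a small step (-0.25 ± 0.05, adjusted p = 0.000986).

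Of the Sprouty genes, SPRY4 had 4.82, 5.14 and 5.35 CPM after ADAR siRNA, against 3.69, 4.40 and 4.0 CPM with siNC, without overlap (0.34 ± 0.11, adjusted p = 0.022). SPRY2 had 8.19, 8.94 and 7.76 CPM after ADAR siRNA, against 8.15, 9.39 and 8.42 CPM with siNC. Its libraries overlapped, and the 95% interval of the log2 change ran from -0.23 to 0.12 (adjusted p = 0.623). ETV5, an ETS transcription factor of the PEA3 group that responds to ERK and FGF signalling, had 8.93, 8.33 and 8.48 CPM after ADAR siRNA, against 5.99, 7.23 and 6.78 CPM with siNC (0.37 ± 0.08, adjusted p = 0.00313). ETV4, of the same group, was near the floor of detection: 0.533, 0.877 and 0.718 CPM after ADAR siRNA, against 0.418, 0.271 and 0.437 CPM with siNC. Its change was the largest of the 10 in size and the least precise (0.89 ± 0.31, adjusted p = 0.0351).

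EGR1, a zinc finger factor of the immediate early response, had 47.7, 48.6 and 45.9 CPM after ADAR siRNA, against 56.3, 56.9 and 62.3 CPM with siNC. All 3 treated libraries were lower (-0.31 ± 0.04, adjusted p = 6.19e-05). PHLDA1, a pleckstrin homology-like protein that negatively regulates growth factor receptor and AKT signalling, had 27.7, 27.9 and 29.5 CPM after ADAR siRNA, against 32.8, 35.0 and 38.2 CPM with siNC. It too was lower in all 3 (-0.32 ± 0.05, adjusted p = 0.000243). FOS, a subunit of the AP-1 factor, moved the other way, with 8.50, 7.95 and 8.68 CPM after ADAR siRNA, against 6.75, 6.59 and 7.60 CPM with siNC (0.26 ± 0.09, adjusted p = 0.027). Calls for SPRY4, ETV4 and FOS stood near the threshold, and each was lost without any 1 of several libraries, while its direction stayed. SPRY4 lost its call without siNC replicate 1 (0.28) or 3 (0.34), or without ADAR siRNA replicate 2 (0.34) or 3 (0.31). FOS lost it without siNC replicate 1 (0.23) or 2 (0.22), or without ADAR siRNA replicate 1 (0.25) or 3 (0.23). ETV4 lost it without siNC replicate 1 (0.96) or 2 (0.72), or without ADAR siRNA replicate 2 (0.71) or 3 (0.88). Biliary markers moved with these groups, at 766 to 796 CPM after ADAR siRNA, against 321 to 355 CPM with siNC. Of 5 biliary markers tested, 4 were called higher and 0 lower. The 10 hepatocyte markers summed to 49000 to 52300 CPM after ADAR siRNA, against 64800 to 69600 CPM with siNC. Single hepatocyte markers differed, with 1 called higher and 6 lower and log2 changes of -0.70 to 2.25. The 6 fibroblast and stellate markers stood at 177 to 180 CPM after ADAR siRNA, against 120 to 129 CPM with siNC, with 4 called higher and 0 lower. Their part in the changes above was not tested.

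**Figure D1:**
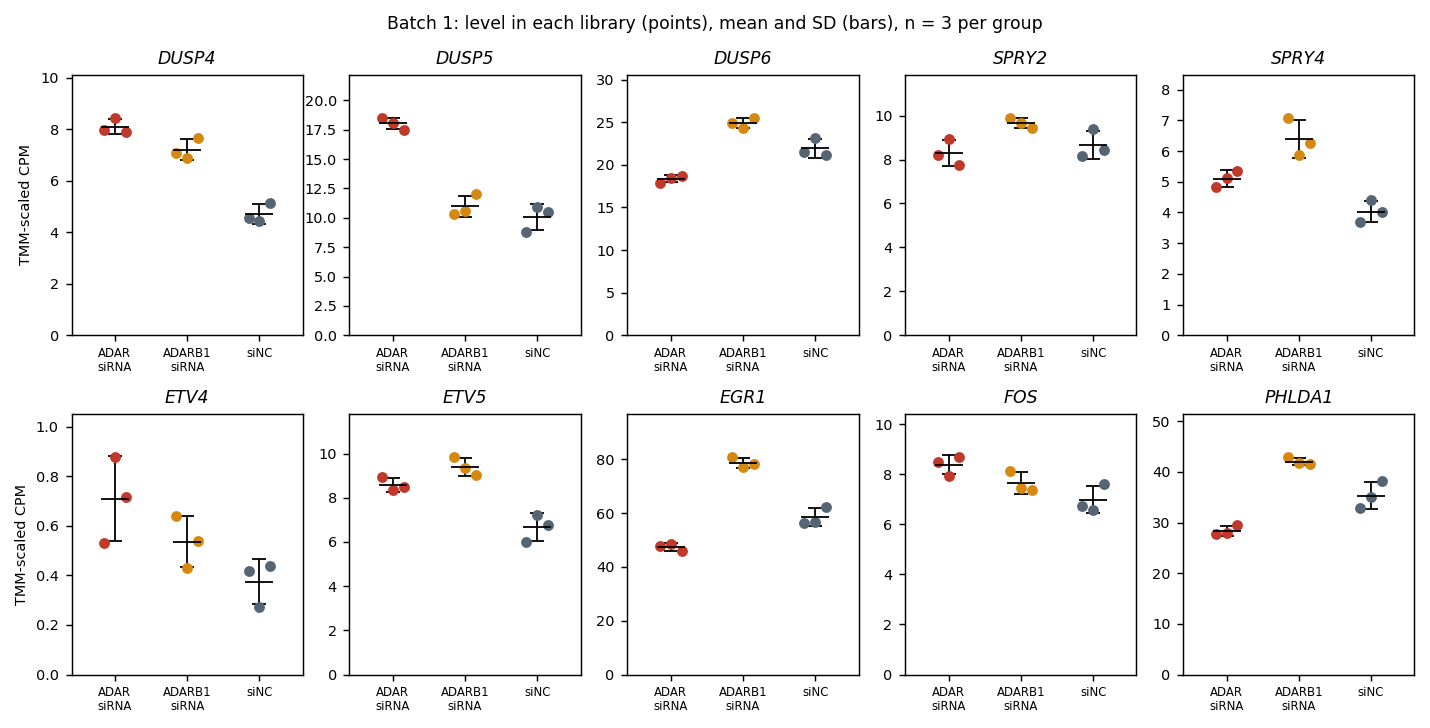
Level of each gene (y axis, TMM-scaled CPM, each panel from 0) in the batch 1 libraries, with points for libraries and bars for the mean and SD of the 3 libraries of ADAR siRNA, ADARB1 siRNA and siNC. DUSP5 is at 17.5 to 18.5 CPM with ADAR siRNA, above both other groups, and EGR1 and PHLDA1 stand in the order ADAR siRNA, siNC, ADARB1 siRNA from low to high.

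ADARB1 siRNA raised 6 of the genes relative to the same siNC libraries and lowered none, in a comparison that called 16.7% of all tested genes, 8.25% higher and 8.45% lower. Without overlap between libraries, 7 stood higher and 0 lower, against 16.0% and 16.3% of all genes. The changes of the 10 genes ran from 0.12 to 0.67, none below 0, and their median was 0.34, against -0.00 over all tested genes. Because both knockdowns share their control libraries, each comparison's values are given side by side and a direct test follows. SPRY4 had 7.08, 5.86 and 6.26 CPM after ADARB1 siRNA, against 3.69, 4.40 and 4.0 CPM with siNC, the largest change of those called (0.67 ± 0.11, adjusted p = 0.000536). DUSP4 had 7.09, 6.86 and 7.64 CPM, against 4.53, 4.43 and 5.15 CPM with siNC (0.61 ± 0.09, adjusted p = 0.00034). ETV5 stood at 9.83, 9.33 and 9.03 CPM after ADARB1 siRNA, against 5.99, 7.23 and 6.78 CPM with siNC (0.50 ± 0.08, adjusted p = 0.000859). These 3 genes were higher after either siRNA.

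EGR1, PHLDA1 and DUSP6, lower after ADAR siRNA, were higher after ADARB1 siRNA. EGR1 had 80.8, 77.3 and 78.2 CPM after ADARB1 siRNA, against 56.3, 56.9 and 62.3 CPM with siNC (0.43 ± 0.04, adjusted p = 1e-05). PHLDA1 had 42.9, 41.8 and 41.5 CPM, against 32.8, 35.0 and 38.2 CPM with siNC (0.25 ± 0.05, adjusted p = 0.00407). DUSP6 had 24.9, 24.3 and 25.5 CPM, against 21.5, 23.2 and 21.1 CPM with siNC (0.19 ± 0.05, adjusted p = 0.0168). None of the 3 overlapped between groups, yet DUSP6 lost its call without siNC replicate 1 (0.17) or 3 (0.16), or without ADARB1 siRNA replicate 1 (0.19) or 3 (0.18). DUSP5 did not pass, with 10.3, 10.6 and 12.0 CPM after ADARB1 siRNA, against 8.83, 10.9 and 10.5 CPM with siNC (0.12 ± 0.08, adjusted p = 0.392). SPRY2, FOS and ETV4 did not pass either, at 0.16, 0.13 and 0.50 on the log2 scale. In a fit of all 19 libraries, whose shared spread is wider than that of batch 1, DUSP6 lost its call in both comparisons with siNC (-0.27, adjusted p = 0.148, after ADAR siRNA and 0.19, adjusted p = 0.529, after ADARB1 siRNA), and PHLDA1 lost the ADARB1 siRNA call (0.25, adjusted p = 0.087). Hepatocyte markers stood at 56500 to 59800 CPM after ADARB1 siRNA, against 64800 to 69600 CPM with siNC, with 6 of 10 called lower. Endothelial markers stood at 195 to 205 CPM after ADARB1 siRNA, against 139 to 153 CPM with siNC, and fibroblast and stellate markers at 143 to 148 CPM, against 120 to 129 CPM with siNC; their part in these changes was not tested.

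The direct test of ADAR siRNA against ADARB1 siRNA called 1 of the 10 genes higher and 5 lower, where 35.7% of all tested genes were called, 18.8% higher and 16.9% lower. Without overlap, 2 stood higher and 6 lower, against 24.1% and 22.9% of all genes. DUSP5 was the gene that was higher after ADAR siRNA, at 17.5 to 18.5 CPM, against 10.3 to 12.0 CPM after ADARB1 siRNA (0.72 ± 0.08, adjusted p = 6.37e-06). EGR1 differed the most, at 45.9 to 48.6 CPM after ADAR siRNA, against 77.3 to 80.8 CPM after ADARB1 siRNA (-0.73 ± 0.04, adjusted p = 1.22e-08). PHLDA1 followed with -0.57 ± 0.05 (adjusted p = 1.11e-06) and DUSP6 with -0.44 ± 0.05 (adjusted p = 7.4e-06). SPRY4 (-0.33 ± 0.11, adjusted p = 0.0246) and SPRY2 (-0.22 ± 0.08, adjusted p = 0.0449) were also called lower. The SPRY4 call was lost without ADAR siRNA replicate 1 (-0.29) or 2 (-0.33) or ADARB1 siRNA replicate 1 (-0.25). The SPRY2 call was lost without any 1 of 5 of the 6 libraries, the exception being ADAR siRNA replicate 2, at -0.24 to -0.18. DUSP4, ETV5, FOS and ETV4 did not pass, with changes of 0.17, -0.13, 0.13 and 0.39.

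**Figure D2:**
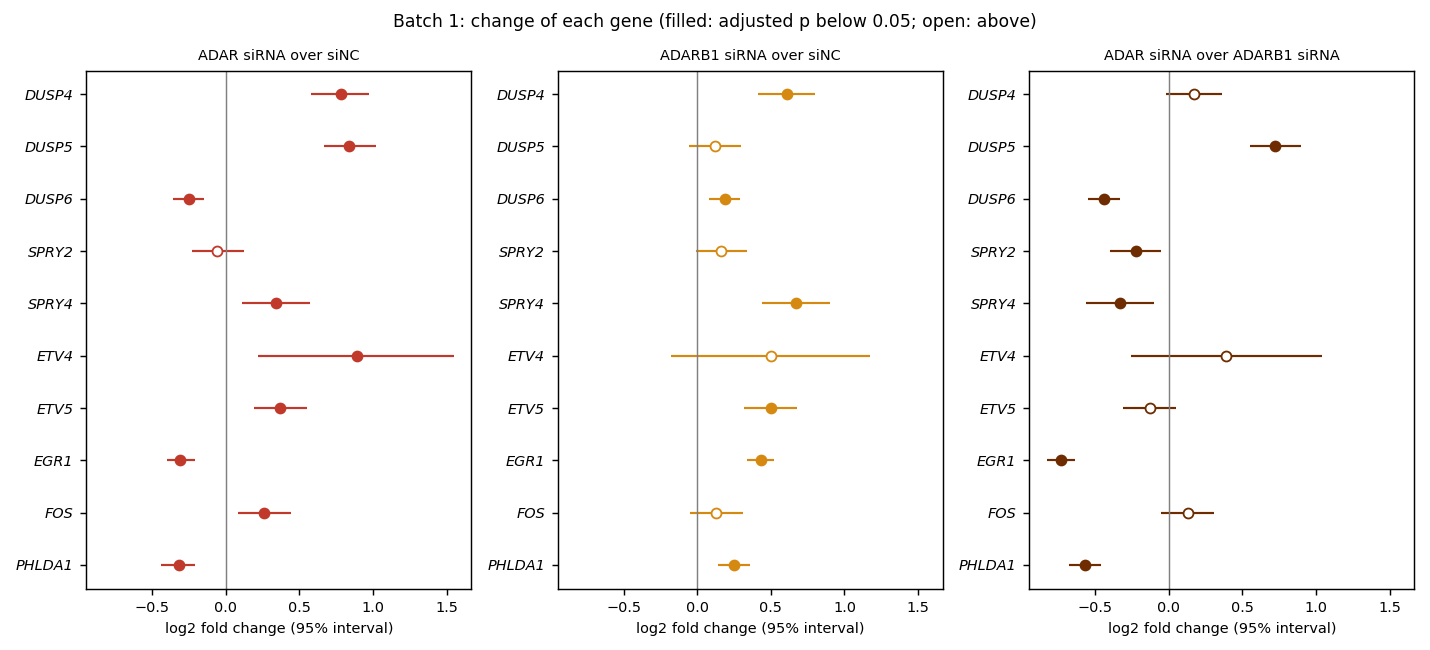
Log2 change of each gene (x axis) with its 95% interval, from edgeR, for the batch 1 comparisons; filled points passed an adjusted p of 0.05. DUSP6, EGR1 and PHLDA1 lie below 0 after ADAR siRNA (-0.25, -0.31 and -0.32) and above 0 after ADARB1 siRNA (0.19, 0.43 and 0.25), while DUSP4, SPRY4 and ETV5 lie above 0 after both.

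Other genes of the pathway, from lists of known members, were called in both directions after ADAR siRNA, where 20.2% of all tested genes were called higher and 17.6% lower. Among 18 other ERK and growth factor target genes, 12 were higher and 4 lower, with CCND1, cyclin D1, at 261 ± 4.09 CPM after ADAR siRNA and 156 ± 8.79 CPM with siNC (SD, n = 3 each; log2 change 0.74). IER3, an ERK-induced survival gene, changed by 0.90. Of 17 other feedback regulators tested, 7 were higher, among them IL17RD (SEF), an inhibitor of FGF signalling, by 0.81 and the RAS GTPase activating gene RASA2 by 0.61, and 4 were lower, DUSP8 by -0.46 among them. Of 21 other immediate early genes tested, 10 were higher and 4 lower, with CCN2 at 0.63, KLF6 at 0.59 and BTG2 at 0.44.

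Upstream of ERK, the receptor gene MET, which binds HGF, had 333 ± 8.96 CPM after ADAR siRNA and 96.1 ± 7.96 CPM with siNC (SD, n = 3 each; log2 change 1.79). It was the strongest call of the 16 receptor genes, of which 7 were higher and 8 lower, including IGF1R (-0.54) and FGFR2 (-0.48). HGF itself was lower, at 1.92 ± 0.425 CPM after ADAR siRNA and 3.96 ± 0.591 CPM with siNC (-1.05), while the EGF receptor ligands TGFA (0.56) and EREG (0.48) were higher. Of 14 ligand genes tested, 5 were higher and 5 lower. In the RAS to ERK relay, 8 of 25 genes were higher and 9 lower, with NF1 and ARAF at -0.36 and -0.44 and RASA1 at 0.47. After ADARB1 siRNA, MET was again higher, at 200 ± 2.21 CPM, against 96.1 ± 7.96 CPM with siNC (1.05), but CCND1 fell (-0.29). Among the lists, where 8.25% of all tested genes were called higher and 8.45% lower, 8 of 16 receptors were higher and 2 lower, 8 of 18 ERK targets higher and 2 lower, and 5 of 17 feedback regulators higher and 3 lower, ERRFI1 (-0.31) and RASA2 (-0.49) among those lower. Of the immediate early genes 5 of 21 were higher and 3 lower, of the ligands 4 of 14 and 1, and of the relay 4 of 25 and 7.

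In batch 2, BX795 with ADAR siRNA raised 5 of the 10 genes relative to siNC and lowered none, where 33.0% of 20718 tested genes were called, 16.9% higher and 16.0% lower. Without overlap, 7 stood higher and 0 lower, against 27.1% and 26.6% of all genes. The changes of the 10 genes ran from 0.05 to 1.03, none below 0, and their median was 0.61, against -0.03 over all tested genes. DUSP5 had 15.6 and 17.4 CPM with BX795 and ADAR siRNA, against 7.28, 8.39 and 8.72 CPM with siNC, the largest change (1.03 ± 0.14, adjusted p = 0.000411). DUSP4 had 18.2 and 18.0 CPM, against 8.23, 9.0 and 12.6 CPM with siNC (0.88 ± 0.17, adjusted p = 0.00304). ETV5 had 9.68 and 14 CPM, against 6.98, 6.24 and 4.81 CPM with siNC (0.96 ± 0.22, adjusted p = 0.00771). SPRY4 stood at 10.8 and 11.9 CPM, against 6.29, 6.44 and 6.52 CPM with siNC (0.83 ± 0.17, adjusted p = 0.00523). PHLDA1 had 70.6 and 71.4 CPM, against 37.5, 43.7 and 50.3 CPM with siNC (0.70 ± 0.11, adjusted p = 0.00123). None of these 5 overlapped between groups. Without replicate 2 of BX795 with ADAR siRNA, ETV5 (0.68) and SPRY4 (0.76) lost their calls. DUSP6 did not pass (0.52, adjusted p = 0.105), but did without siNC replicate 2 (0.74). The PHLDA1 change was 0.41 with the GC correction, which also brought EGR1 (0.32) and FOS (0.45) past the threshold. EGR1 and FOS without it were 0.14 and 0.05. SPRY2 was -0.11 with it and 0.05 without it, and ETV4 0.50 with it and 0.17 without it. The number of all genes called, 6829, fell to 1982 without replicate 2 of BX795 with ADAR siRNA. Endothelial markers summed to 664 to 718 CPM with BX795 and ADAR siRNA, against 443 to 497 CPM with siNC. Leukocyte markers summed to 21.2 to 22.4 CPM, against 39.1 to 45.2 CPM with siNC. Hepatocyte markers summed to 10300 to 12900 CPM, against 13400 to 16000 CPM with siNC. Fibroblast and stellate markers were at 215 to 228 CPM, against 264 to 305 CPM with siNC, and the biliary sums overlapped. Single markers differed: of 4 biliary markers tested 3 were called higher and 1 lower, and of 10 hepatocyte markers 2 higher and 6 lower. Of 5 fibroblast and stellate markers tested, 1 was higher and 2 lower. Endothelial markers had 1 of 2 higher and 0 lower, and leukocyte markers 0 of 3 higher and 3 lower. Their part in these results was not tested.

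BX795 against siNC raised 2 of the genes and lowered 1, where 42.1% of all tested genes were called, 20.2% higher and 21.9% lower. Without overlap, 3 stood higher and 1 lower, against 26.7% and 26.4% of all genes. PHLDA1 had 69.7, 71.2 and 73.9 CPM with BX795, against 37.5, 43.7 and 50.3 CPM with siNC, with no overlap (0.71 ± 0.10, adjusted p = 0.000752). This call held when any library was left out, though the GC correction brought the change to 0.39. SPRY4 had 8.87, 9.13 and 9.08 CPM, against 6.29, 6.44 and 6.52 CPM with siNC (0.49 ± 0.16, adjusted p = 0.0296); with the GC correction it was 0.85, and without any 1 of the 6 libraries of the 2 groups it lost its call, at 0.48 to 0.53. FOS had 8.69, 8.22 and 8.61 CPM, against 10, 11.3 and 10.2 CPM with siNC (-0.30 ± 0.11, adjusted p = 0.0489). It lost its call without any of the 6 libraries but siNC replicate 1, at -0.31 to -0.22. The direction of FOS turned with the GC correction, to 0.19. FOS transcripts are the richest in GC of the 10 genes, at 60.1%, and PHLDA1 transcripts the poorest, at 43.0%. The correction brought 2 more genes past the threshold upward, DUSP5 (0.54) and EGR1 (0.26), and SPRY2 downward (-0.45). EGR1 without the correction was 0.04 ± 0.10, with 41.5, 36.1 and 33.6 CPM under BX795, against 35.5, 37.3 and 35.7 CPM with siNC. Without siNC replicate 3, DUSP5 (0.41) and DUSP4 (0.36) passed, and without siNC replicate 1, SPRY2 did (-0.38). DUSP4, DUSP6, ETV4 and ETV5 did not pass in the full set, at 0.13, 0.13, -0.99 and 0.17, nor with the GC correction, where DUSP4 was 0.28 and ETV4 -0.57. ETV4 was near the floor of detection throughout batch 2, at 3 to 15 counts per library. The SE of its -0.99 was 0.55. The number of all genes called, 8712, was 5386 without BX795 replicate 2 and 5751 without replicate 3.

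**Figure D3:**
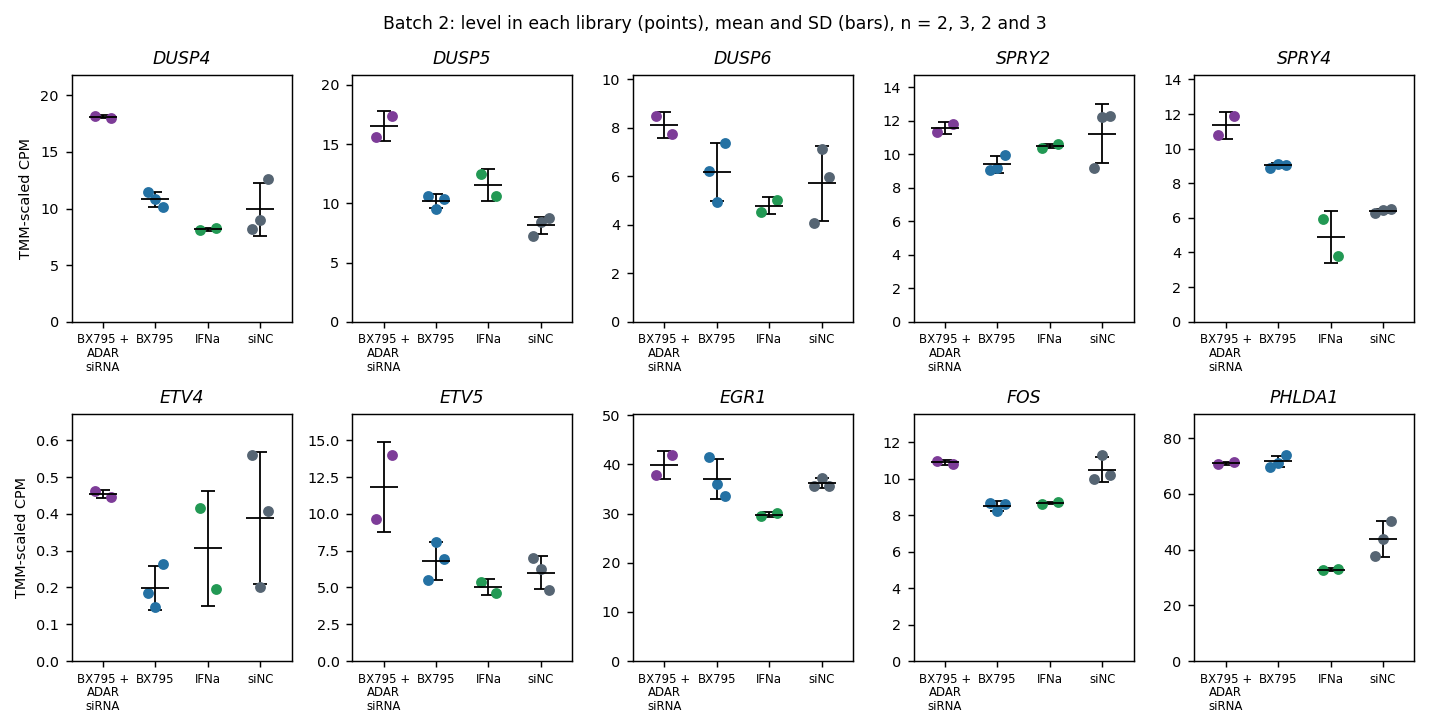
Level of each gene (y axis, TMM-scaled CPM, each panel from 0) in the batch 2 libraries, with points for libraries and bars for the mean and SD, for BX795 with ADAR siRNA (2 libraries), BX795 (3), IFNa (2) and siNC (3). PHLDA1 is at 69.7 to 73.9 CPM with BX795 and at 70.6 to 71.4 CPM with BX795 and ADAR siRNA, against 37.5 to 50.3 CPM with siNC.

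BX795 with ADAR siRNA had higher DUSP4 and DUSP5 than BX795 and no other call among the 10 genes, where 3.66% of tested genes were called, 1.49% higher and 2.17% lower. If the BX795 wells had no siNC, ADAR siRNA and transfection cannot be told apart here. Without overlap, 8 stood higher and 0 lower, against 18.2% and 17.9% of all genes. DUSP4 had 18.2 and 18.0 CPM with BX795 and ADAR siRNA, against 11.5, 10.8 and 10.1 CPM with BX795 (0.75 ± 0.16, adjusted p = 0.0278). DUSP5 had 15.6 and 17.4 CPM, against 10.6, 9.49 and 10.4 CPM with BX795 (0.70 ± 0.13, adjusted p = 0.0143). Neither overlapped between groups. Both calls are fragile: DUSP4 lost its call without any 1 of the 5 libraries, at 0.70 to 0.79, and DUSP5 without any but BX795 replicate 1, at 0.62 to 0.76. ETV5 had 9.68 and 14 CPM, against 5.48, 8.08 and 6.90 CPM with BX795, and did not pass (0.79 ± 0.21, adjusted p = 0.0733). PHLDA1 did not differ beyond its spread, with 70.6 and 71.4 CPM, against 69.7, 71.2 and 73.9 CPM with BX795 (-0.01, adjusted p = 0.976). EGR1, at 37.8 and 41.9 CPM, against 41.5, 36.1 and 33.6 CPM with BX795, overlapped (0.11). With the GC correction, ETV5 passed (0.79, adjusted p = 0.0302). The number of all genes called, 758, was lower without any 1 library: 453, 331 and 337 without BX795 replicates 1, 2 and 3, and 181 and 329 without replicates 1 and 2 of BX795 with ADAR siRNA. Biliary markers stood at 195 to 233 CPM with BX795 and ADAR siRNA, against 113 to 131 CPM with BX795, and hepatocyte markers at 10300 to 12900 CPM, against 16200 to 17300 CPM with BX795; their part in these changes was not tested.

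IFNa changed 2 of the genes, DUSP5 upward and PHLDA1 downward, where 22.7% of tested genes were called, 11.9% higher and 10.9% lower. Without overlap, 1 stood higher and 4 lower, against 25.3% and 24.7% of all genes. DUSP5 had 12.5 and 10.6 CPM with IFNa, against 7.28, 8.39 and 8.72 CPM with siNC (0.52 ± 0.14, adjusted p = 0.0264). PHLDA1 had 32.5 and 33.1 CPM, against 37.5, 43.7 and 50.3 CPM with siNC (-0.41 ± 0.12, adjusted p = 0.0306). The DUSP5 call was lost without IFNa replicate 1 (0.41), and that of PHLDA1 without siNC replicate 2 (-0.40) or 3 (-0.29), or without IFNa replicate 1 (-0.39) or 2 (-0.38). EGR1 had 29.4 and 30.1 CPM with IFNa, against 35.5, 37.3 and 35.7 CPM with siNC, without overlap, and did not pass (-0.28 ± 0.11, adjusted p = 0.0829). The other 7 genes did not pass, at -0.38 to -0.09, and SPRY4 ranged from 3.81 to 5.94 CPM with IFNa, against 6.29 to 6.52 CPM with siNC. With the GC correction, DUSP5 (0.67) and PHLDA1 (-0.68) kept their calls. EGR1 was then -0.12 (adjusted p = 0.38), SPRY4 -0.12, against -0.38 without the correction, and FOS 0.08, against -0.27 without it. DUSP4 was -0.16 with it and -0.27 without it, ETV4 -0.04 with it and -0.35 without it, and SPRY2 -0.22 with it and -0.09 without it. The number of all genes called, 4705, rested on single libraries: it was 263 without IFNa replicate 1, 1532 without siNC replicate 3, 1847 without siNC replicate 2 and 7514 without siNC replicate 1. Hepatocyte markers summed to 12500 to 13300 CPM with IFNa, against 13400 to 16000 CPM with siNC. Of these 10 markers, 0 were called higher and 3 lower, with log2 changes of -1.24 to 0.71. Endothelial markers summed to 677 to 749 CPM with IFNa, against 443 to 497 CPM with siNC. Of the 2 tested, 1 was called higher and 0 lower, with log2 changes of -1.48 and 0.59. Fibroblast and stellate markers summed to 340 to 345 CPM, against 264 to 305 CPM with siNC, with 2 of 5 tested called higher and 1 lower. Biliary markers summed to 157 to 184 CPM, against 202 to 285 CPM with siNC, with 1 of 4 tested higher and 1 lower. The part of these markers in the IFNa results was not tested.

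**Figure D4:**
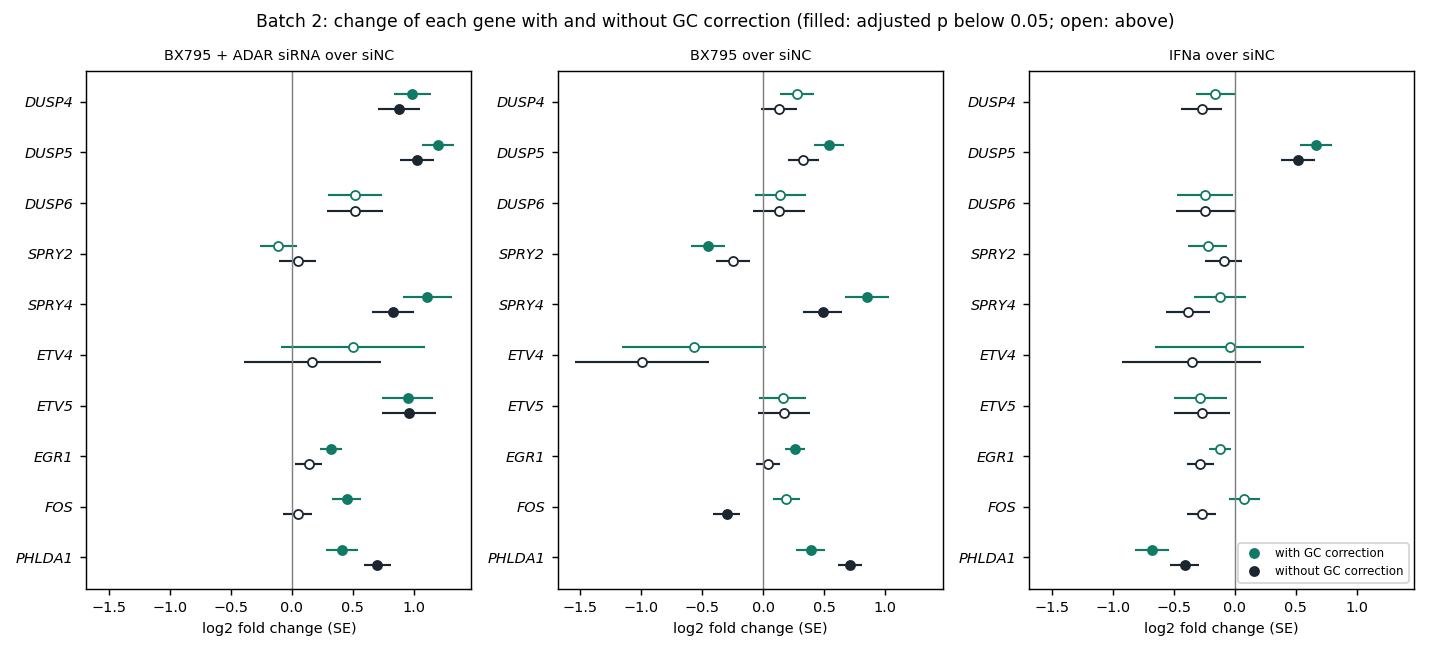
Log2 change of each gene (x axis) with its SE, from edgeR, in BX795 with ADAR siRNA, BX795 and IFNa over siNC, with GC correction (green) and without it (dark); filled points passed an adjusted p of 0.05. PHLDA1 lies at 0.71 without and 0.39 with the correction for BX795, FOS at -0.30 without and 0.19 with it, and DUSP5 is above 0 in each comparison with siNC.

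Summed markers of cell types moved with BX795, though single markers of a list differed. Hepatocyte markers summed to 16200 to 17300 CPM with BX795, against 13400 to 16000 CPM with siNC. Of these 10 markers, 4 were called higher and 2 lower, with log2 changes of -0.68 to 5.51. Biliary markers summed to 113 to 131 CPM with BX795, against 202 to 285 CPM with siNC. Of 4 biliary markers tested, 2 were called higher and 2 lower. Fibroblast and stellate markers summed to 220 to 229 CPM, against 264 to 305 CPM with siNC, with 1 of 5 tested called higher and 3 lower. Of 2 endothelial markers tested 1 was called higher and 0 lower, and of 3 leukocyte markers 0 higher and 1 lower. Endothelial markers stood at 655 to 699 CPM with BX795, against 443 to 497 CPM with siNC, leukocyte markers at 25.6 to 28.3 CPM, against 39.1 to 45.2 CPM with siNC, and the share of counts from mitochondrial genes at 4.52 to 4.77% with BX795, against 1.62 to 3.20% with siNC; their part in the BX795 results was not tested. The other lists held calls in both directions, to be read against 20.2% of all tested genes called higher and 21.9% lower with BX795, and 11.9% higher and 10.9% lower with IFNa. These list values have no GC correction. With BX795 against siNC, 6 of 17 feedback regulators tested were higher and 6 lower: ERRFI1, an inhibitor of EGFR, had 612 ± 38.2 CPM with BX795 and 259 ± 36.6 CPM with siNC (SD, n = 3 each; log2 change 1.24), DUSP16, a JNK and p38 phosphatase, changed by 0.94 and SOCS3, a cytokine feedback inhibitor, by -2.15. Of 22 other immediate early genes 8 were higher and 8 lower, with NR4A3 at 2.80, NR4A1 at 1.68 and FOSB at -1.28. ERK targets split into 7 higher and 7 lower of 18, TFPI2 (2.07) with the smallest adjusted p. Receptors split into 5 higher and 7 lower of 16, EGFR at 0.91 and AXL at -0.88. Of 14 ligands 4 were higher, such as EREG (1.29), and 3 lower, such as PDGFB (-2.74) and VEGFA (-0.87). The relay had 12 higher and 5 lower of 25. After IFNa, 1 of 17 feedback regulators was higher and 4 lower (SPRED3 -0.92, SOCS3 -0.57), and 2 of 22 immediate early genes were higher and 7 lower (JUNB -0.98, NR4A1 -0.76). With IFNa, ERK targets had 4 higher and 3 lower of 18 (ETV1 1.23, IER3 -0.73), receptors 3 and 2 of 16 (MET 0.79), ligands 2 and 2 of 14 and the relay 6 and 3 of 25.

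With BX795 and ADAR siRNA against BX795, MET (1.34), CCND1 (0.73) and CCN2 (0.84) were higher and HGF (-1.49) was lower, in lists with few other calls, where 1.49% of all tested genes were called higher and 2.17% lower. The ERK targets had 3 higher of 18, the immediate early genes 4 of 22 and the feedback regulators 1 of 17, DUSP7 (0.63), with none lower in these 3 lists. Receptors had 1 of 16 higher, ligands 1 of 14 higher and 2 lower, and the relay 1 of 25 lower. With BX795 and ADAR siRNA against siNC, where 16.9% of all tested genes were called higher and 16.0% lower, the counts were 5 higher and 4 lower of 17 feedback regulators, 6 and 4 of 18 ERK targets, 9 and 5 of 22 immediate early genes, 5 and 5 of 14 ligands, 3 and 7 of 16 receptors and 10 and 2 of 25 relay genes, CCN2 (1.46) and CCND1 (1.21) among the higher.

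The ADAR siRNA effect with BX795 was compared with that without it in 1 fit of all 19 libraries, taking each effect within its batch. This called EGR1 higher among the 10 genes and none lower, where 3.42% of 23121 tested genes were called, 1.42% higher and 2.00% lower. The difference was 0.44 ± 0.11 (adjusted p = 0.0273). EGR1 had 37.8 and 41.9 CPM with BX795 and ADAR siRNA, against 41.5, 36.1 and 33.6 CPM with BX795, and 47.7, 48.6 and 45.9 CPM after ADAR siRNA, against 56.3, 56.9 and 62.3 CPM with siNC in batch 1. The call was lost without siNC replicate 3 of batch 1 (0.39), without ADAR siRNA replicate 1 (0.44), 2 (0.45) or 3 (0.42), without BX795 replicate 2 (0.42) or 3 (0.32) and without either library of BX795 with ADAR siRNA (0.46 and 0.31). DUSP6 had a larger difference with a wider error (0.67 ± 0.21, adjusted p = 0.0951). The DUSP4 and DUSP5 differences were -0.01 and -0.11. The number of all genes called, 790, was 384 without replicate 1 of BX795 with ADAR siRNA and 519 without ADAR siRNA replicate 2. Batch and BX795 cannot be told apart in this comparison, since all libraries without BX795 in it came from batch 1. Transfection cannot be told apart either if the BX795 wells had no siNC. In the other lists, BTG2 (-0.65) was among the few calls. Of 10 hepatocyte markers 0 were called higher and 3 lower in this comparison, and of 6 fibroblast and stellate markers 0 and 2. No biliary, endothelial or leukocyte marker was called. The part of these markers in the EGR1 difference was not tested.

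The genes fell into sets by their likeness over libraries, given as Pearson's r of log2(CPM + 1) and as a description, since libraries of 1 group share their treatment and a pair of genes that follow the same groups has a high r. In batch 1 (9 libraries), EGR1 and PHLDA1 had r = 0.97, DUSP6 and PHLDA1 0.94, DUSP6 and EGR1 0.93, and SPRY4 and ETV5 0.93, while DUSP5 ran against DUSP6 (-0.77) and PHLDA1 (-0.76). SPRY2 in batch 1 had 0.79 with DUSP6, 0.80 with EGR1 and 0.72 with PHLDA1. In batch 2 (10 libraries), SPRY4 and PHLDA1 had 0.90, SPRY4 and ETV5 0.80 and EGR1 and PHLDA1 0.71, and DUSP6 had 0.56 with EGR1. Over all 19 libraries, each batch centred on its own mean, the genes most like DUSP6 among 13886 searched were ICOSLG (0.86), TSPAN9 (0.84), GID8 (0.83), CASTOR3P (0.82) and ACAD8 (0.81).

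**Figure D5:**
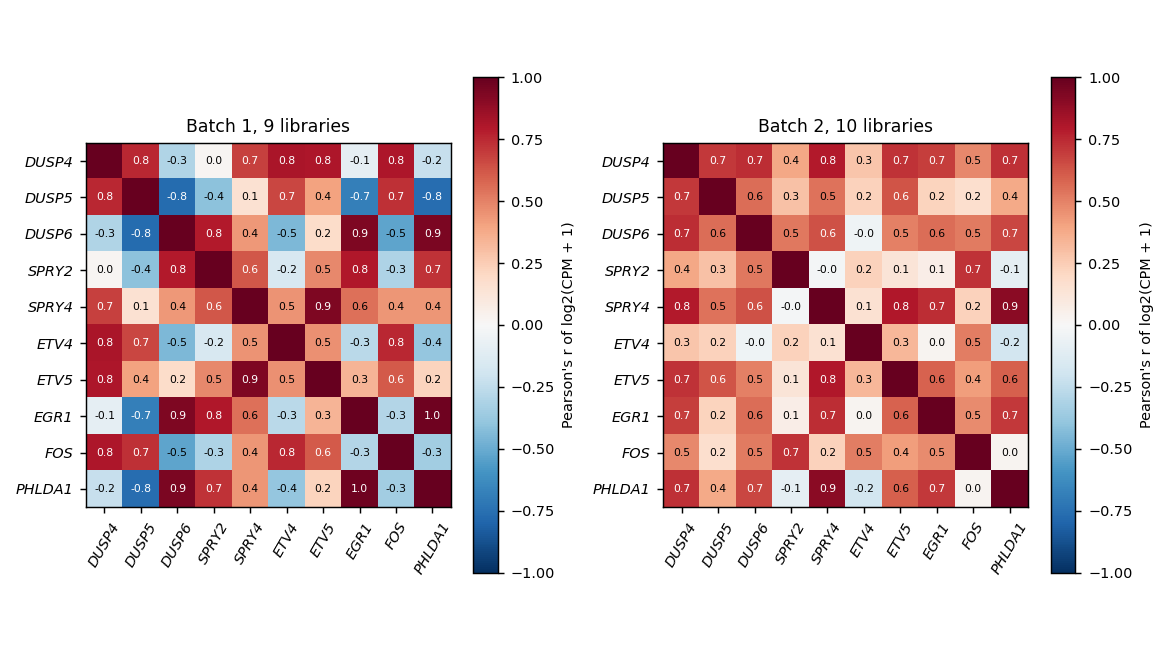
Pearson's r between the 10 genes over the 9 libraries of batch 1 (left) and the 10 of batch 2 (right), on log2(CPM + 1); the colour runs from -1 (blue) to 1 (red). In batch 1 the DUSP6, EGR1 and PHLDA1 block is red (0.93 to 0.97) and DUSP5 is blue against it; in batch 2 most pairs are red, including DUSP5 with DUSP6.

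Some of the genes share positions with others, and no source used here states whether counting used strand. DUSP6, SPRY4 (with SPRY4-AS1), ETV5 (with ETV5-AS1), ETV4 (with DHX8) and PHLDA1 overlap a gene on the opposite strand, and ETV5 overlaps DGKG on the same strand. Values for these 5 could thus hold reads of the neighbour. On GRCh38.p14, EGR1 lies at chr5:138465479-138469303, PHLDA1 at chr12:76025447-76031776, DUSP6 at chr12:89347235-89352501, DUSP5 at chr10:110497907-110511533 and SPRY4 at chr5:142310430-142325021.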

How the data were processed

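RNA was measured in 19 libraries in 7 groups of 2 or 3. The authors deposited 1 table of expected counts, with STAR, Salmon and GRCh38.p14 named in the submitters' processing notes. Tool versions, settings, the strand of counting and the annotation release were not stated. Since 94.82% of entries were whole to within 0.005, all were rounded (largest move 0.5), and no column was left out. Symbols were found for 61463 of 78894 genes.

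Each batch was fitted alone with edgeR 4.0.16 (R 4.3.3): TMM scaling, filterByExpr, quasi-likelihood F tests and Benjamini-Hochberg adjustment over all genes tested, called below 0.05. Batches were separated because the common coefficient of variation was 6.68% in batch 1 and 14.2% in batch 2, so batch 2, with lower totals, gives wider errors. The difference between ADAR siRNA effects used 1 fit of all 19 libraries. Alternatives were DESeq2 1.42.0 (test and size factors), no filter, a replicate block, correction for GC content (a lowess trend per library, known for 87.7% and 88.8% of tested genes), 1 fit of 19 libraries, the compared groups alone and each library left out. The code was tested on simulated data. The 10 genes, the other lists, the markers and the tests were chosen with earlier results of these data known. From each other list, up to 3 called genes with the smallest adjusted p were eligible to be named. A few genes that this rule names are not reported here. Outside the replicate block, replicate numbers were not treated as pairing the libraries, since no label states a pairing.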

Additional observations from a re-analysis of the deposited data

Results flagged for a closer look

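EGR1 drew attention because the ADAR siRNA effect differed between cells with and without BX795 by the test of that difference. The effect with BX795 minus the effect without it was 0.44 ± 0.11 on the log2 scale (edgeR, adjusted p = 0.0273). With BX795 and ADAR siRNA, EGR1 had 37.8 and 41.9 CPM, against 41.5, 36.1 and 33.6 CPM with BX795. In batch 1 it had 47.7, 48.6 and 45.9 CPM after ADAR siRNA, against 56.3, 56.9 and 62.3 CPM with siNC. With each library left out in turn the difference was 0.31 to 0.47, and its adjusted p 0.0112 to 0.213. Batch and BX795 cannot be told apart here.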

How the results depend on the processing

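Over all alternatives, 969 log2 changes of the 10 genes kept their direction and side of the threshold, 89 lost their call, 23 gained one and 37 changed sign. In 1 fit of 19 libraries, the number of genes called was 5 in place of 9 for ADAR siRNA, 3 in place of 6 for ADARB1 siRNA and 4 in place of 2 for BX795 with ADAR siRNA against BX795. After ADAR siRNA the lost calls were DUSP6, SPRY4, ETV4 and ETV5, and after ADARB1 siRNA DUSP6, ETV5 and PHLDA1. All genes called in that fit numbered 5042 in place of 8223, 1066 in place of 3632, 2201 in place of 758, 4518 in place of 7768 for ADAR against ADARB1 siRNA, and 7932 in place of 4705 for IFNa. For IFNa it was 1 without the filter and 0 with the compared groups alone, in place of 2. For BX795 it was 5 with GC correction, in place of 3. For the difference of effects it was 2 by DESeq2, in place of 1. The causes were not tested. Other counts of all genes that moved by over 1.5 times were 2114 for IFNa and 4468 (in place of 6829) for BX795 with ADAR siRNA against siNC with the compared groups alone. Against BX795 they were 1264 by DESeq2, 1287 without the filter and 1832 with GC correction, and for the difference of effects (790) 1211 by DESeq2 and 1344 with GC correction.

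Same-numbered libraries did not deviate together in every pair, with correlations of -0.03 to 0.06 in batch 1 and -0.44 to 0.48 in batch 2. In batch 2 groups of 2 libraries the deviations mirror each other, so these correlations cannot settle whether libraries were paired. The replicate numbers are not read as pairing in the main fits. With the replicate block, IFNa had 0 calls, BX795 had 1, BX795 with ADAR siRNA against BX795 had 0 and the difference of effects had 0. All genes called with the block numbered 612 for IFNa, 3955 for BX795 with ADAR siRNA against siNC, 282 against BX795 and 459 for the difference of effects. With block and GC correction they were 1800 for IFNa, 5069 for BX795 and 4294 for BX795 with ADAR siRNA against siNC.

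With each library left out in turn, the calls were 6 to 8 for ADAR siRNA, 5 to 6 for ADARB1 siRNA, 4 to 5 for ADAR against ADARB1 siRNA, 0 to 2 for IFNa, 1 to 3 for BX795, 3 to 6 for BX795 with ADAR siRNA against siNC, 0 to 1 for the same against BX795 and 0 to 1 for the difference of effects. A group left with 1 library is assumed to vary like the others.

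No change that turned sign passed the threshold after turning. IFNa: SPRY2 was 0.06 without the filter, FOS 0.08 with GC correction and 0.06 with it and the replicate block, and ETV4 0.06 with both. BX795: FOS was 0.19 with GC correction, also with the block. BX795 with ADAR siRNA against siNC: SPRY2 was -0.11 with GC correction and -0.05 with it and the block. Against BX795: PHLDA1 was 0.02 without the filter, 0.05 with the block, 0.02 with GC correction, 0.09 with both and 0.00 in the 19-library fit. Difference of effects: SPRY4 was -0.02 with DESeq2 size factors, its test and no filter, -0.06 with GC correction and -0.05 with the block too, and DUSP4 was 0.05 with the block and 0.01 with both. With single libraries left out, changes that crossed 0 ran from -0.22 to 0.00 (SPRY2) and -1.0 to 0.09 (ETV4) for IFNa, -0.09 to 0.36 (DUSP6) and -0.05 to 0.10 (EGR1) for BX795, -0.09 to 0.14 (SPRY2) and -0.11 to 0.59 (ETV4) for BX795 with ADAR siRNA against siNC, -0.03 to 0.01 (PHLDA1) against BX795, and -0.11 to 0.03 (DUSP4) and -0.11 to 0.08 (SPRY4) for the difference of effects. ETV4 had no value with the compared groups alone for IFNa and BX795.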
